A study of Mus musculus with 10 samples.

Results

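Transcripts of 10 genes that encode effector cytokines and death ligands (Ifng, Tnf, Il2, Csf2, Il10, Il21, Lif, Lta, Fasl and Tnfsf10) were followed in tumor-infiltrating CD8+ T cells, 10 of the 34932 genes to which the quantified transcripts belong. The genes were chosen by name, and the estimated reads of their transcripts were summed per gene in each of 10 libraries. The 5 libraries labelled MIT-BATF came from Pmel CD8+ T cells transduced with an MSCV-IRES-Thy1.1 (MIT) retrovirus that carries the mouse BATF reading frame. The 5 labelled MIT-Empty came from Pmel CD8+ T cells given the same vector without an insert. Pmel cells bear a transgenic T cell receptor for gp100, an antigen of melanocytes and of B16 melanoma, and BATF is a transcription factor of the AP-1 family. In both groups the donor cells were Thy1.2/Thy1.2 splenocytes, were activated with gp100 peptide and IL-2, were grown in IL-2, IL-7 and IL-15, and were transferred into Ly5.1 mice with B16-F10 tumors, a single melanoma line. Per the study's methods, mice were adults of both sexes. On day 7 after transfer 2000 live Thy1.1+ cells were sorted from each mouse, so each library is 1 mouse, and the comparison asks what forced BATF does to the transcripts of cells in the tumor. Cells before transfer and untransduced cells are not analysed here.

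The targeted gene did not separate the groups. Batf had 12.4, 22.6, 23.5, 24.8 and 26.5 CPM (counts relative to the TMM-scaled library size) in the libraries labelled MIT-BATF, against 13.5, 19.9, 36.8, 24.9 and 50.8 CPM in those labelled MIT-Empty (log2 fold change -0.41, adjusted p = 0.522 from edgeR), and it is unknown whether reads of the vector count as Batf. Every direction below is that of the libraries so labelled. A MIT-BATF library held 10702740 to 34102086 counts and a MIT-Empty library 6534472 to 21355657. The counts of replicates 4 and 5 of each group lay, gene by gene, within those of replicates 2 and 3. They exceeded them in 0.271% to 0.606% of genes with at least 5 counts, against at least 3.46% for any other pair of libraries. If these are the same reads, errors and p-values over 10 libraries are too small, so the tests of the 10 genes are also given with shared reads counted once, that is, with the contained library taken off the library that holds it. Of 9 CD8 T cell markers edgeR called 0, with 0 at an unadjusted p under 0.05 and 0 called by DESeq2 or limma voom, and their summed level was 3276 to 5510 CPM in MIT-BATF, against 3750 to 5996 in the MIT-Empty libraries. Melanoma and macrophage transcripts were lower in MIT-BATF, and their values stand beside the results below. Mitochondrial genes held 33.2% of the counts of MIT-BATF replicate 1, 11.5% to 15.1% in the other MIT-BATF libraries and 15.5% to 23.1% in MIT-Empty. In sorted bulk samples fewer cells that express a gene and less RNA per cell cannot be told apart.

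An activated CD8+ T cell acts on its target in several ways. It secretes interferon gamma and the tumor necrosis factors, which act on tumor, stromal and myeloid cells through their receptors, and it carries Fas ligand and TRAIL, which trigger caspases through death receptors. It also makes growth and regulatory cytokines: IL-2 and IL-21 signal through receptors that share the common gamma chain, GM-CSF acts on myeloid cells, IL-10 restrains inflammation, and LIF signals through gp130. T cell receptor signals switch on several of these genes through NFAT, NF-kB and AP-1 factors. Many cytokine mRNAs are kept short-lived by AU-rich elements in the 3′ untranslated region, which proteins such as ZFP36 bind.

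The AU-rich repeat is a feature that most of the 10 genes share and that the choice of genes did not use. In the GENCODE transcript with the most reads, the pentamer ATTTA occurred 9 times in the 317 bases of 3′ untranslated region of Csf2, or 28.4 times per kilobase, and 0.0457% of 10954 tested genes were as dense. Il2 had 12.1, Tnf 10.5, Ifng 9.51, Il10 8.50 and Lta 5.25 per kilobase, against a median of 1.34 over the tested genes. Il21, Lif, Tnfsf10 and Fasl, with longer regions of 2578, 3180, 3998 and 887 bases, had 3.49, 2.20, 2.00 and 1.13. The nonamer TTATTTATT, which overlaps the pentamer, was found in 6 of the 10 genes (Tnf, Csf2, Lif, Il2, Il21 and Lta) and in 7.90% of tested genes. For the 2 genes that passed the test between the groups (Csf2 and Il10) and for Il2, Tnf and Ifng, the next densest in pentamers, the 30 bases with the most pentamers are printed from the GENCODE transcripts of GRCm38, on the coding strand, with each pentamer in capitals. The last of them, from Fasl, shows a gene with a single pentamer.
Csf2, chr11:54247325-54247354, minus strand: taaatATTTATTTATTTATTTATTTAtttt
Il10, chr1:131024384-131024413, plus strand: ctctctccgaaatATTTAttacctctgata
Il2, chr3:37121039-37121068, minus strand: tATTTATTTAaatATTTAactttaATTTAt
Tnf, chr17:35199678-35199707, minus strand: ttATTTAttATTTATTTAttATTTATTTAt
Ifng, chr10:118445332-118445361, plus strand: cctATTTAttaatATTTAaaactATTTAta
Fasl, chr1:161780763-161780792, minus strand: taatacaactagtATTTAtgctctgaacat

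Promoters were read for 9 of the 10 genes from RefSeq (GRCm38.p6), as the 250 bases before each start. Il10 was not matched. The AP-1 letters TGANTCA, searched on both strands, stood in 1 of the 9 promoters, that of Lif, and in 6.70% of 32851 promoters. The NFAT core GGAAA stood in 9 of 9 and in 55.6% of all promoters, and TATAAA in 4 of 9 (Ifng, Tnf, Il2 and Lta) and in 12.4%. None of these motifs overlaps another in the sequences printed here. A match describes the letters only. The stretches of Lif, Csf2 and Ifng show the AP-1 match, the gene with the most stable difference between the groups and the most abundant gene, with matches to any of the 3 motifs in capitals. RefSeq starts Csf2 232 bases upstream of the GENCODE start, so its stretch lies that much farther out.
Lif, chr11:4257318-4257567, plus strand: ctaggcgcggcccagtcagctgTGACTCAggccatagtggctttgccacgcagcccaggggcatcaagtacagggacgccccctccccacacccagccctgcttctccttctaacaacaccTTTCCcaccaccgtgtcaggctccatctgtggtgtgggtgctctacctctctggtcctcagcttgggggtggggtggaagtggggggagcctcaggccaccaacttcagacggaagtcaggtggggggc
Csf2, chr11:54249900-54250149, minus strand: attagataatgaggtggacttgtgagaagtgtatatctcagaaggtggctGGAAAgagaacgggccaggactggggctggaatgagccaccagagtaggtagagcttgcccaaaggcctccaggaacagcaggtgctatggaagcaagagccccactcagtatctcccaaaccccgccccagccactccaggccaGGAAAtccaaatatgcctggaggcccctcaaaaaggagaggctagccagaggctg
Ifng, chr10:118440796-118441045, plus strand: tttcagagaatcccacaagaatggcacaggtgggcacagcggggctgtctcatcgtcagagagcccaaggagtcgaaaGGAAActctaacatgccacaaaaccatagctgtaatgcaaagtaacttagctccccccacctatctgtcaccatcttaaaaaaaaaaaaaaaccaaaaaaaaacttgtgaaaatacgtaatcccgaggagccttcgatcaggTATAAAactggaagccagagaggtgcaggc

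Interferon gamma was by far the main transcript of the group. On the TPM scale, which is per length and so allows genes to be set side by side, Ifng was the highest of the 10 genes in every library, at 42.0, 136.5, 146, 64.4 and 149.99 TPM in MIT-BATF replicates 1 to 5 and 73.6, 109, 118, 237 and 52.8 TPM in MIT-Empty. It stood 3.33 times (MIT-BATF replicate 1) to 21.5 times (MIT-Empty replicate 4) above the next gene. Ifng held 78.0 ± 9.25% of the summed TPM of the 10 genes in MIT-BATF, against 78.3 ± 6.03% for MIT-Empty (SD, n = 5 a group), a difference of -0.307 percentage points (p = 0.968, exact two-sided permutation test). The share therefore differed by less than the spread between libraries, and it did so too with shared reads counted once (76.7 ± 9.88% and 77.4 ± 6.82%, p = 0.984 by the same exact test).

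The order below Ifng was not the same in both groups. Median levels in MIT-BATF were 8.87 TPM for Fasl, 5.44 for Il2, 4.22 for Lta, 3.10 for Csf2, 1.82 for Tnfsf10, 1.15 for Tnf, 0.1295 for Lif, 0.0834 for Il10 and 0.0667 for Il21. In MIT-Empty they were 9.91 TPM for Csf2, 6.96 for Fasl, 4.04 for Lta, 1.78 for Il2, 1.55 for Tnfsf10, 1.04 for Tnf, 0.798 for Il10, 0.208 for Il21 and 0.0499 for Lif. Csf2 thus stood in the fifth place in MIT-BATF and in the second in MIT-Empty, where it was above Fasl in 4 of 5 libraries, and Lif stood last in MIT-Empty. With shared reads counted once these places of Csf2 and Lif were the same, but Lta (6.28 TPM) stood above Il2 (3.91) and Il21 (0.0667) above Il10 (0.0414) in MIT-BATF, and Tnfsf10 (1.62) above Il2 (1.23) in MIT-Empty, where Il10 had a median of 0.463 TPM. Several neighbours in this order were not separated within a group. In MIT-BATF Fasl was above Il2 in 3 of 5 libraries, Il2 above Lta in 3 and Lta above Csf2 in 2, while Csf2 was above Tnfsf10, and Tnf above Lif, in all 5. In MIT-Empty Fasl was above Lta in all 5, and Lta above Il2, Il2 above Tnfsf10 and Tnfsf10 above Tnf in 3 each.

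**Figure D1:**
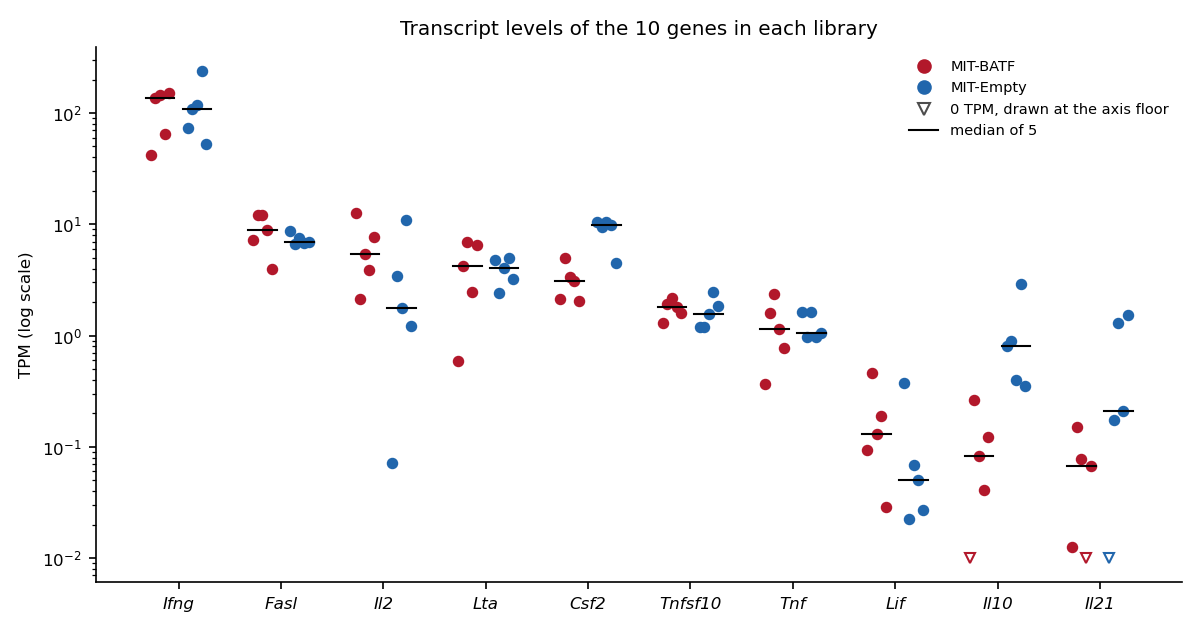
TPM values on a log axis for the 10 genes in each library, MIT-BATF in red on the left of each pair and MIT-Empty in blue on the right, with a bar at the median of 5 libraries. Ifng lies above every other gene, the medians of Csf2 and Il10 lie lower in MIT-BATF, and the open triangles mark the 3 values of 0 TPM for Il10 and Il21.

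Between the groups, Csf2 and Il10 fell in the libraries labelled MIT-BATF, and edgeR called none of the tested genes higher. Lif, which the expression filter left out, was higher by a permutation test given with its values below. Of the 9 genes that passed edgeR's expression filter, 2 were called lower and 0 higher, with a median log2 fold change of -0.11. Over all 11781 genes tested 2.43% were called lower and 2.16% higher, with a median of 0.01. At an unadjusted p under 0.05 there were 3 lower and 0 higher, and the share of all genes at that threshold is not given for any fit. DESeq2 called 3 lower and 0 higher (Il21 besides Csf2 and Il10), against 703 lower and 470 higher of 18313 genes with an adjusted p. By limma voom 2 were lower and 0 higher, against 699 lower and 637 higher of 11781 genes. Once shared reads were counted once, 7 of the 10 genes passed the filter, and 1 of them, Csf2, was called lower and 0 higher, while over all 11131 genes tested 0.683% were called lower and 0.575% higher. At an unadjusted p under 0.05 that fit also had 1 lower and 0 higher. Il10, Il21 and Lif were too low for the filter then, and Lif in both fits. Over the deposited counts Il10 passed the filter only through the MIT-Empty libraries (0.778 to 6.79 CPM, against 0 to 0.487 in MIT-BATF). Lif, low in MIT-Empty, was dropped, so the filter bears on the counts of genes called lower and higher. Without the filter edgeR gave Il10 an adjusted p of 0.00691 and Lif one of 0.273.

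**Figure D2:**
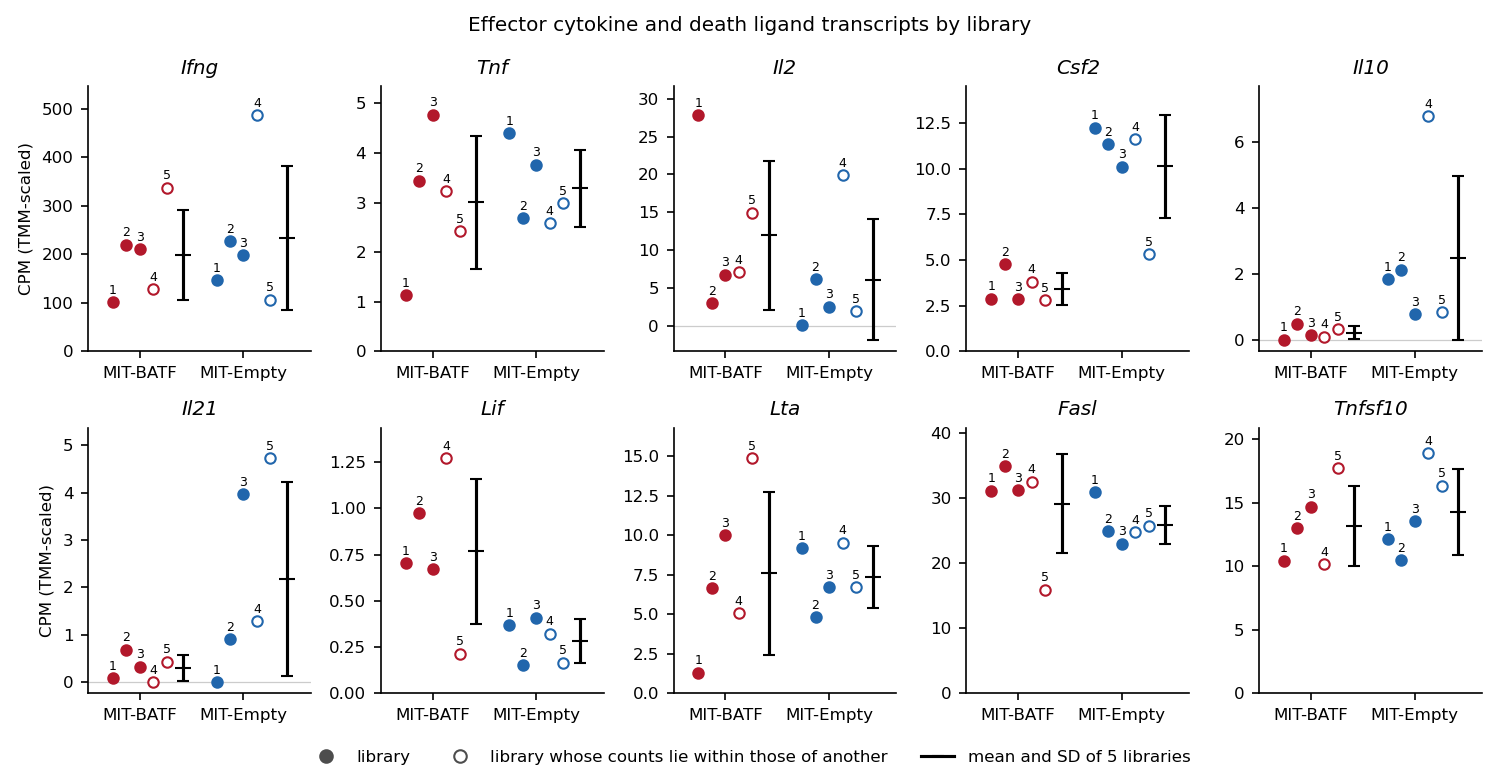
CPM of each gene in each of the 10 libraries, numbered by replicate, MIT-BATF in red on the left and MIT-Empty in blue on the right, with black bars for the mean and SD of 5 libraries and open points for libraries whose counts lie within those of another. For Csf2 every MIT-BATF library (2.80 to 4.78 CPM) lies below every MIT-Empty library (5.31 to 12.2 CPM), which does not hold by TPM.

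Csf2, which encodes the myeloid growth factor GM-CSF, showed the most stable difference of the 10. It lies on chromosome 11 of GRCm38 from 54247271 to 54249667. Replicates 1 to 5 held 2.90, 4.78, 2.85, 3.82 and 2.80 CPM in MIT-BATF (33, 118, 123, 39 and 52 counts), against 12.2, 11.4, 10.1, 11.6 and 5.31 CPM in MIT-Empty (100, 224, 247, 72 and 64 counts). On the CPM scale the groups did not overlap, and MIT-Empty replicate 5 lay nearest to the MIT-BATF libraries. By TPM they did overlap, with 5.01 in MIT-BATF replicate 2 and 4.53 in MIT-Empty replicate 5. The share of all tested genes whose groups do not overlap is not given here. Means were 3.43 ± 0.866 CPM in MIT-BATF, against 10.1 ± 2.81 in the MIT-Empty libraries (SD, n = 5 a group). The log2 fold change was -1.56 (standard error 0.27, 95% confidence interval -2.13 to -0.98, adjusted p = 0.00404 from edgeR), that is, MIT-BATF stood at 0.340 times the MIT-Empty level. With shared reads counted once it was -1.63 (95% interval -2.30 to -0.96, adjusted p = 0.0182), with 3.11, 5.94, 3.09, 4.10 and 3.01 CPM in MIT-BATF and 13.2, 12.3, 15.8, 12.6 and 5.71 CPM in MIT-Empty, so that MIT-BATF replicate 2 and MIT-Empty replicate 5 then overlapped. The call was lost in that fit without MIT-Empty replicate 2 (log2 fold change -1.62, adjusted p = 0.0509) and, over the deposited counts, when the containing libraries were left out (-1.61, adjusted p = 0.223 with 3 libraries a group).

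Il10, which encodes the regulatory cytokine IL-10, had a larger fold change that rested on few reads. It lies on chromosome 1 from 131019845 to 131024974. Replicates 1 to 5 held 0, 12, 6, 1 and 6 counts in MIT-BATF (0, 0.487, 0.139, 0.0979 and 0.323 CPM), against 15, 42, 19, 42 and 10 counts in MIT-Empty (1.84, 2.13, 0.778, 6.79 and 0.830 CPM). Every MIT-BATF library was below every MIT-Empty library, again without the share of all tested genes that separate so. The 0 in MIT-BATF replicate 1 allows up to 0.263 CPM, the level of 3 counts. The log2 fold change was -3.35 (standard error 0.76, 95% interval -4.97 to -1.73, adjusted p = 0.0208 from edgeR). The 42 counts of MIT-Empty replicate 2 are as many as those of replicate 4, which lies within it, so that with shared reads counted once replicate 2 was left with 0. The levels were then 0.256 ± 0.349 CPM in MIT-BATF, against 2.20 ± 2.96 in the MIT-Empty libraries (SD, n = 5 a group; p = 0.103, exact two-sided permutation test), and a fit without the filter gave -2.93 on the log2 scale (adjusted p = 0.0880 from edgeR). Without MIT-Empty replicate 2 the same permutation test gave p = 0.0159 (exact, difference -2.49 CPM). This was the only 1 of 11 alternatives to that test under 0.05, and the others reached p = 0.238 (exact permutation test). Over the deposited counts the call was also lost without MIT-BATF replicate 3 (adjusted p = 0.0612), without MIT-BATF replicate 4 (0.0580), without MIT-Empty replicate 4 (-2.58, 0.0581) and without the contained libraries (-2.74, 0.2497).

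Most macrophage and melanoma markers were also lower in MIT-BATF, while over all 11781 genes tested 2.43% were called lower. Markers of other cells did not all fall, and Itgax, Xcr1 (dendritic cells) and Cd79b (B cells) were called higher by edgeR. Of 13 macrophage and monocyte markers, 11 were tested and 4 were lower in MIT-BATF (Lyz2, C1qc, Apoe and Ms4a7) with a median log2 fold change of -1.74. Their summed level was 25.5, 41.8, 47.5, 41.0 and 84.6 CPM in MIT-BATF and 122, 154, 118, 291 and 43.8 CPM in MIT-Empty. Of 8 melanoma markers, 6 were tested and 6 were lower (median -3.86), with a summed level of 17.4 to 30.6 CPM in MIT-BATF, against 41.7 to 1783 in the MIT-Empty libraries. MIT-Empty replicate 4 had the highest level of both lists and of Il10. Of the macrophage markers that the filter left out, Adgre1 averaged 0.0209 CPM in MIT-BATF, against 1.51 in the MIT-Empty libraries, with 0 counts in 3 libraries. Itgam went the other way, at 0.867 and 0.581 CPM. The tested marker Fcgr1 also had a positive log2 fold change (0.31, adjusted p = 0.908 from edgeR). Macrophages can make IL-10, and the part of other cells in the Il10 and Csf2 differences was not tested. MIT-Empty replicate 5 had the fewest macrophage transcripts of its group and also the lowest Csf2, while MIT-BATF replicate 5, at 84.6 CPM of macrophage markers, had 2.80 CPM of Csf2. Without MIT-Empty replicates 2 and 4, which hold the most of both lists over the deposited counts, Csf2 had a log2 ratio of -1.42 (adjusted p = 0.0422 from edgeR) and Il10 one of -2.28 (adjusted p = 0.181), an alternative chosen after the data had been seen. The MIT-Empty replicates 1 and 3 kept in that fit still held 122 and 118 CPM of macrophage markers. Counted with shared reads once, MIT-Empty replicate 2 held 51.7 CPM of melanoma markers and 101 CPM of macrophage markers, less than replicates 1 and 3, and 1 macrophage marker and 2 melanoma markers were called lower.

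**Figure D3:**
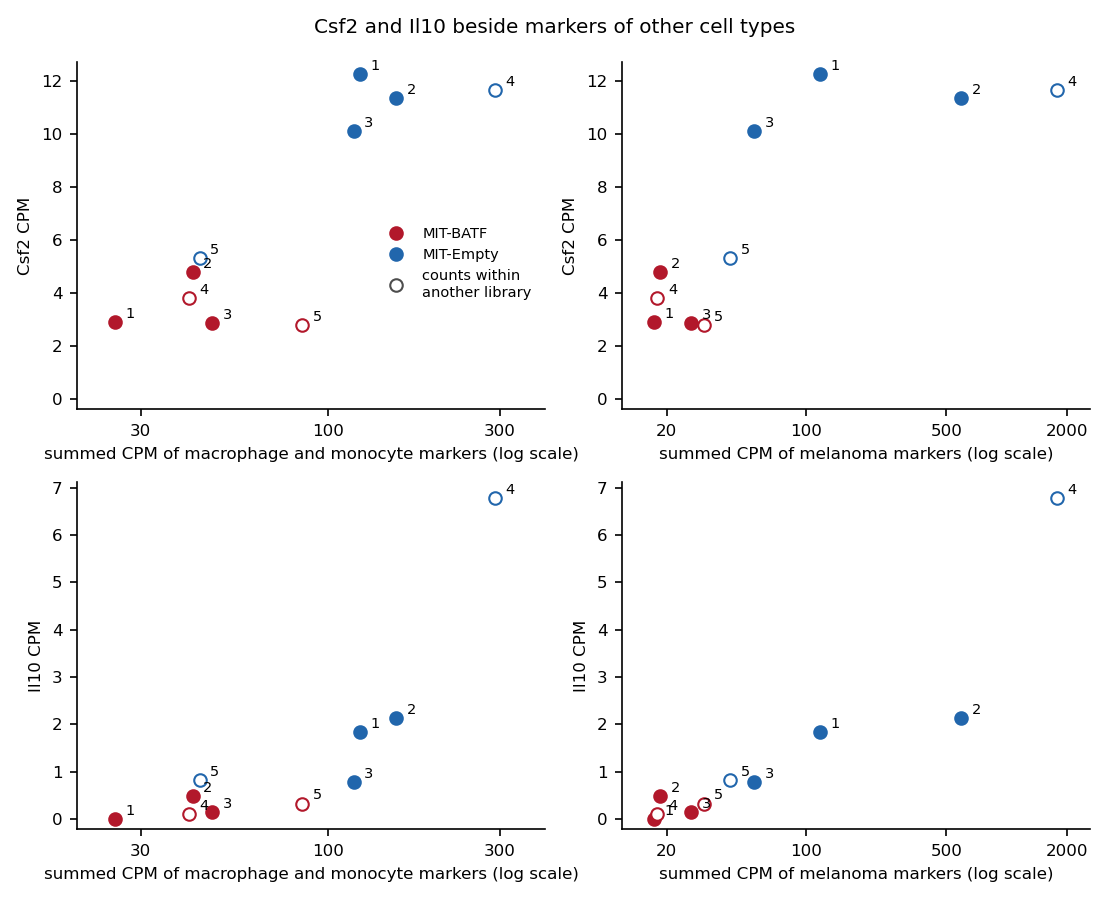
CPM of Csf2 (top) and Il10 (bottom) against the summed CPM of macrophage and monocyte markers (left) and melanoma markers (right, both on log axes) in each library, numbered by replicate, MIT-BATF red and MIT-Empty blue, open where the counts lie within another library. MIT-Empty replicate 4 has the highest marker sums and the highest Il10, and MIT-Empty replicate 5 lies among the MIT-BATF libraries in macrophage markers at 43.8 CPM.

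The genes of the gamma chain cytokines, Il2 and Il21, lie 96799 bases apart on chromosome 3 and varied widely between libraries of 1 group. Il21, whose product helps CD8+ T cells and acts upstream of BATF, is known chiefly as a CD4+ T cell cytokine. Its gene, from 37222759 to 37232636, held 1, 17, 14, 0 and 8 counts in MIT-BATF and 0, 18, 97, 8 and 57 counts in MIT-Empty, or 0.307 ± 0.276 and 2.18 ± 2.05 CPM (SD, n = 5 a group). The groups overlapped at the low end, and the values of 0 allow up to 0.294 CPM in MIT-BATF replicate 4 and 0.367 CPM in MIT-Empty replicate 1. The log2 fold change was -2.70 (95% interval -4.53 to -0.88), and the adjusted p from edgeR was 0.0936. Il21 did pass by DESeq2 (adjusted p = 0.0279) and without MIT-Empty replicate 1 (-3.00, 0.0330), and missed with shared reads counted once (0.419 ± 0.511 and 2.15 ± 2.08 CPM, p = 0.103 by an exact two-sided permutation test, and 0.0159 without MIT-Empty replicate 1). Leaving out that library, which held 0 counts, was the only 1 of 11 alternatives to the permutation test under 0.05. The others reached p = 0.206 (exact permutation test). Summed markers of CD4 T cells were at 3.00 to 7.38 CPM in MIT-BATF, against 1.10 to 5.12 in the MIT-Empty libraries. The list was split: Cd4 (0.231 and 0.499 CPM) and Cxcr5 (0.206 and 1.04 CPM) averaged lower in MIT-BATF. Cd40lg (2.17 and 1.20 CPM), Zbtb7b (1.54 and 0.904 CPM) and Foxp3 (0.523 and 0.126 CPM) averaged higher. A part of CD4+ T cells in the Il21 values was not tested.

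Il2, the gene of the T cell growth factor IL-2, lies on chromosome 3 from 37120523 to 37125959. It had 27.8, 3.08, 6.79, 7.14 and 15.0 CPM in MIT-BATF and 0.122, 6.24, 2.58, 19.9 and 1.99 CPM in MIT-Empty. The groups overlapped widely, and the means of 11.97 ± 9.87 and 6.16 ± 7.98 CPM (SD, n = 5 a group) carried SDs of 82.5% and 130% of their size. The log2 fold change was 1.01 (95% interval -0.61 to 2.63, adjusted p = 0.534 from edgeR). Single libraries set this value: it was 0.45 without MIT-BATF replicate 1 and 2.04 without MIT-Empty replicate 4, and neither passed (adjusted p = 0.789 and 0.147). In 3 of the 4 nested pairs the contained library had about as many Il2 counts as the containing one, and the reads themselves were not compared. MIT-BATF replicate 2 had 76 counts and replicate 4 had 73, and MIT-BATF replicate 3 had 293 and replicate 5 had 278. MIT-Empty replicates 2 and 4 had 123 each. The exception was MIT-Empty replicate 3, with 63 counts against 24 in replicate 5. With shared reads counted once MIT-Empty replicate 2 held 0 counts and MIT-BATF replicate 2 held 3, and the log2 fold change was 1.07 (95% interval -1.39 to 3.54). The fitted 2.02-fold difference in Il2 was thus within the spread between libraries.

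Ifng encodes interferon gamma, which induces antigen presentation and chemokines in its targets, and lies on chromosome 10 from 118441046 to 118445892. It was at 101, 220.2, 211, 128 and 338 CPM in MIT-BATF, against 147, 228, 199, 487 and 107 CPM in MIT-Empty. The highest value was in MIT-Empty and the lowest in MIT-BATF, and the groups overlapped over most of their range. The log2 fold change was -0.22 (95% interval -1.02 to 0.58, adjusted p = 0.816 from edgeR) and -0.24 with shared reads counted once (-1.18 to 0.71). The sign hung on MIT-Empty replicate 4, without which the value was 0.23 (adjusted p = 0.793).

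Tnf and Lta, the genes of tumor necrosis factor and of lymphotoxin alpha, which share receptors, lie 1157 bases apart on chromosome 17. Tnf, from 35199381 to 35202007, had 1.14, 3.45, 4.77, 3.23 and 2.43 CPM in MIT-BATF and 4.41, 2.69, 3.77, 2.59 and 2.99 CPM in MIT-Empty. Lta, from 35203165 to 35205351, had 1.32, 6.65, 10.0, 5.09 and 14.9 CPM in MIT-BATF and 9.18, 4.82, 6.71, 9.53 and 6.72 CPM in MIT-Empty. For both genes MIT-BATF replicate 1, the library with 33.2% mitochondrial counts, was the lowest of all 10, and the MIT-BATF values spread on both sides of the MIT-Empty ones. The log2 fold changes were -0.11 for Tnf (95% interval -0.87 to 0.64, adjusted p = 0.913) and 0.07 for Lta (-0.85 to 0.99, adjusted p = 0.961), both from edgeR. They were -0.02 (-0.92 to 0.88) and 0.05 (-0.97 to 1.06) with shared reads counted once, and either sign was found among the alternatives. Lta was above Tnf in all 10 libraries by TPM.

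Lif encodes leukemia inhibitory factor, a cytokine of the IL-6 family, and lies on chromosome 11 from 4257557 to 4272514. It was close to the limit of detection, with 8, 24, 29, 13 and 4 counts in MIT-BATF and 3, 3, 10, 2 and 2 counts in MIT-Empty. In CPM these are 0.702, 0.973, 0.672, 1.27 and 0.216 in MIT-BATF and 0.367, 0.152, 0.409, 0.323 and 0.166 in MIT-Empty. By CPM 4 MIT-BATF libraries thus lay above every MIT-Empty library and the fifth among them. By TPM this did not hold: MIT-Empty replicate 1 (0.372) stood above every MIT-BATF library except replicate 2 (0.461). The means of 0.767 ± 0.392 and 0.284 ± 0.118 CPM differed by 0.483 CPM (p = 0.0317, exact two-sided permutation test, the single gene tested so over the deposited counts, where the filter left it out). With shared reads counted once the difference was 0.532 CPM (p = 0.0397 by the same exact test). Taken in ranks, the difference did not pass (p = 0.0556, exact permutation test). A fit of all genes without the filter gave a log2 fold change of 1.46 (95% interval -0.02 to 2.94) and did not pass after adjustment (adjusted p = 0.273 from edgeR). The permutation test no longer passed when MIT-BATF replicate 4 was left out (0.357 CPM, p = 0.0556), nor without MIT-Empty replicates 2 (0.451 CPM, p = 0.0794), 4 (0.493 CPM, p = 0.0556) or 5 (0.454 CPM, p = 0.0794), all by the exact permutation test.

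No difference in the death ligand genes passed the test. Fasl, the gene of Fas ligand, lies on chromosome 1 from 161780689 to 161788495 and had 31.1, 34.9, 31.2, 32.5 and 15.9 CPM in MIT-BATF, against 30.9, 24.9, 23.0, 24.7 and 25.7 CPM in MIT-Empty. Thus 4 of 5 MIT-BATF libraries lay above all MIT-Empty libraries and replicate 5 below them all. The log2 fold change was 0.17 (95% interval -0.24 to 0.58, adjusted p = 0.703 from edgeR), and 0.32 with shared reads counted once (-0.17 to 0.82, adjusted p = 0.720). Tnfsf10, the gene of TRAIL, lies on chromosome 3 from 27317028 to 27342427 and had 10.4, 13.0, 14.7, 10.2 and 17.7 CPM in MIT-BATF and 12.1, 10.5, 13.6, 18.9 and 16.3 CPM in MIT-Empty. The groups overlapped fully, with a log2 fold change of -0.10 (95% interval -0.55 to 0.35, adjusted p = 0.861) and 0.03 with shared reads counted once (-0.56 to 0.62). Both intervals of Tnfsf10 lie within a 2-fold change in either direction.

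**Figure D4:**
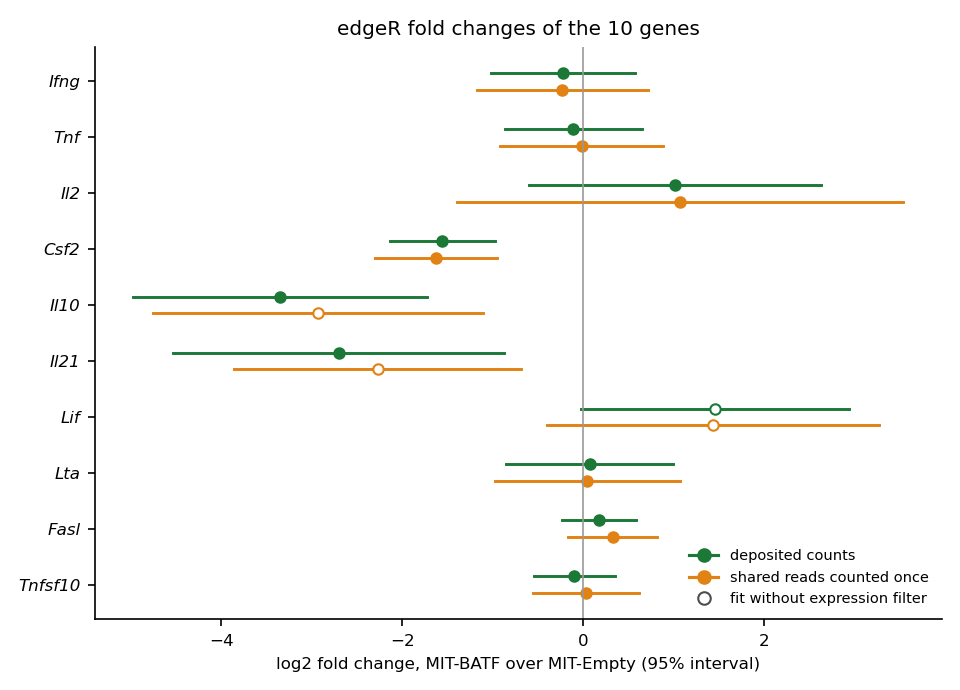
Log2 ratio of MIT-BATF to MIT-Empty levels (points) with 95% intervals (bars) from edgeR for the deposited counts in green and for counts with shared reads taken once in orange, open where the expression filter was not applied. The intervals of Csf2, Il10 and Il21 lie below 0, and those of the other 7 genes include 0.

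The genes around the 10 were described from 6 further lists. Over all 11781 genes tested edgeR called 2.16% higher and 2.43% lower, and limma voom called 637 higher and 699 lower. DESeq2 called 470 higher and 703 lower of 18313 genes with an adjusted p. With shared reads counted once edgeR called 0.575% higher and 0.683% lower. Shares at an unadjusted p under 0.05 are not given, so counts at that threshold are not read as results about a list. Of 22 receptor genes 18 were tested, 1 was higher and 0 lower (median log2 fold change 0.08). This was Ifngr1, which encodes the binding chain of the interferon gamma receptor, at 369 ± 59.2 CPM in MIT-BATF, against 223 ± 43.4 in the MIT-Empty libraries (SD, n = 5 a group; log2 change 0.73, edgeR adjusted p = 0.0215, 0.0951 with shared reads counted once). The call was lost without MIT-BATF replicate 4 (adjusted p = 0.0536) and without MIT-Empty replicates 1 (0.0503), 2 (0.0714) or 4 (0.0547). At an unadjusted p under 0.05 there were 4 receptor genes higher and 1 lower, DESeq2 called 2 higher and 0 lower, and limma voom called 3 higher and 0 lower. The 3 chains of the IL-2 receptor, named after their values were seen, had log2 fold changes of 0.58 for Il2ra (adjusted p = 0.119), 0.45 for Il2rb (0.133) and 0.17 for Il2rg (0.754), all from edgeR.

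Of 24 other cytokine and TNF ligand genes 15 were tested, 1 was higher and 2 lower, with a median of -0.43. Cd70, the gene of the ligand of CD27, had 3.74 ± 0.880 CPM in MIT-BATF, against 15.2 ± 2.95 in the MIT-Empty libraries (SD, n = 5 a group; log2 change -2.05, edgeR adjusted p = 0.000148, 0.000888 with shared reads counted once). Spp1, the gene of the secreted protein osteopontin, had 25.5 ± 23.2 CPM in MIT-BATF, against 150.7 ± 20.7 in the MIT-Empty libraries (-2.55, adjusted p = 0.00475 from edgeR, 0.0148 with shared reads counted once). Spp1 is also a gene of macrophages, and their part in its difference was not tested. It ran from 8.12 to 63.6 CPM in MIT-BATF and from 118 to 167 CPM in MIT-Empty. Summed macrophage markers ran from 25.5 to 84.6 CPM and from 43.8 to 291 CPM. Il16, the gene of a chemoattractant of CD4+ cells, was higher in MIT-BATF at 34.6 ± 5.28 CPM against 19.9 ± 1.95 CPM in MIT-Empty (0.79, adjusted p = 0.00660 from edgeR, 0.0819 with shared reads counted once). Il3, which lies beside Csf2 in the mouse genome and is made by activated T cells, had 8.81 ± 9.47 CPM in MIT-BATF, against 7.99 ± 7.73 in the MIT-Empty libraries (0.17, adjusted p = 0.935 from edgeR) and was chosen after its value was seen.

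Of 29 transcription factor genes that act on these cytokines 28 were tested, 2 were higher and 1 lower (median 0.16). Maf, whose product drives Il10 in several T cell types, had 20.7 ± 3.85 CPM in MIT-BATF, against 5.71 ± 2.68 in the MIT-Empty libraries (SD, n = 5 a group; log2 change 1.90, edgeR adjusted p = 0.00123, 0.00343 with shared reads counted once), while Il10 itself was lower. Egr1, an immediate early gene, was higher (1.02, adjusted p = 0.0272 from edgeR), and Rel, the gene of the NF-kB subunit c-Rel, was lower (-0.55, adjusted p = 0.0335). With shared reads counted once neither passed (0.126 and 0.160). With 1 library left out at a time, each passed in 3 of 10 fits. Egr1 lost its call without MIT-BATF replicates 2 (adjusted p = 0.0695), 3 (0.0787) or 4 (0.0537) and without MIT-Empty replicates 2 (0.0772), 3 (0.0503), 4 (0.0563) or 5 (0.0620). Rel lost its call without MIT-BATF replicates 2 (0.0565), 3 (0.0813), 4 (0.0793) or 5 (0.0606) and without MIT-Empty replicates 2 (0.0923), 3 (0.0948) or 5 (0.0635).

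Of 15 genes whose products bind AU-rich or related mRNA elements 14 were tested, and edgeR called 0 in either direction, with 3 higher and 0 lower at an unadjusted p under 0.05 and 0 called by DESeq2, while limma voom called 1 higher. The most abundant, Zfp36l2, had a log2 ratio of 0.10 (adjusted p = 0.811), and the range of the list was -0.31 to 0.58. Of 17 genes of death signalling and of ligand shedding 16 were tested, 1 was higher and 0 lower: Ripk3, the gene of a kinase of necroptosis, had 12.8 ± 1.72 CPM in MIT-BATF, against 7.08 ± 0.921 in the MIT-Empty libraries (SD, n = 5 a group; log2 change 0.85, edgeR adjusted p = 0.0152, 0.123 with shared reads counted once, 0.0532 without MIT-Empty replicate 2). At an unadjusted p under 0.05, 4 genes of this list were higher and 1 was lower, and DESeq2 and limma voom each called 2 higher and 1 lower. Of 13 genes of the interferon gamma response 11 were tested and edgeR called 0, with 3 higher and 1 lower at an unadjusted p under 0.05, 0 called by DESeq2 and 2 higher by limma voom. The most abundant, Jak1, had a log2 ratio of 0.16 (adjusted p = 0.607). Of these 6 lists edgeR called 1 gene higher and 2 lower with shared reads counted once, Maf, Cd70 and Spp1. These 3 lost their calls without the containing libraries (adjusted p = 0.1304, 0.0810 and 0.135 from edgeR).

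**Figure D5:**
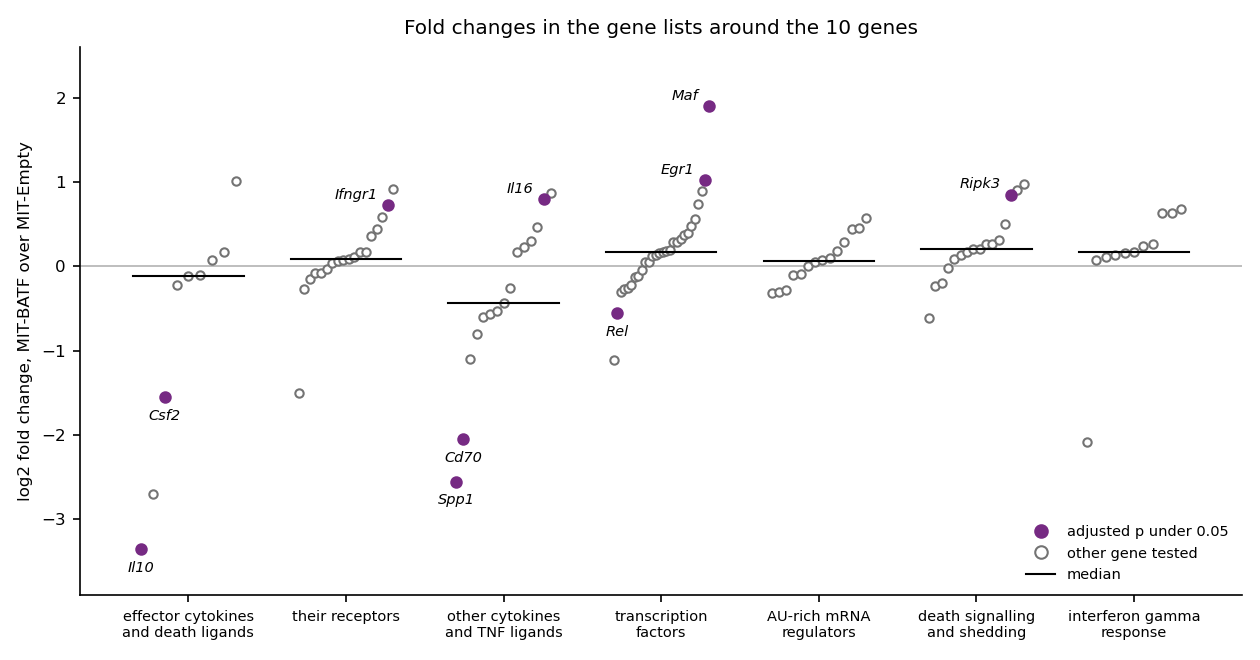
Log2 ratio of MIT-BATF to MIT-Empty levels for every tested gene of the 10 genes and of 6 lists around them, ordered within each list, with the median as a bar. Genes past an adjusted p of 0.05 in edgeR are filled and named, and 11 of 13 genes of the interferon gamma response list were tested with none past it.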

How the data were processed

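RNA of sorted Thy1.1+ cells (5 mice a group) had been amplified by SMART-Seq2 and sequenced in pairs. The authors quantified transcripts with Salmon (mm10, per the submitters' processing notes) and deposited per library the estimated count and the TPM of each transcript, which is scaled by transcript length and library. Estimated counts were summed per gene with GENCODE M21 names (305 of 112092 transcripts were unmatched, 0.0617% to 0.0890% of counts) and rounded. Groups were taken from the labels, and a further number in the names of the deposited tables was not used.

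MIT-BATF was compared with MIT-Empty by edgeR 4.0.16 (quasi-likelihood test, TMM, filterByExpr, condition as only term, Benjamini-Hochberg over all genes, threshold 0.05) in R 4.3.3. The test was checked on simulated counts. Alternatives were DESeq2 1.42.0, limma 3.58.1 (voom with quality weights), other filters and size factors, a replicate block, and fits that leave out libraries. For genes the filter dropped, and for shares, a two-sided permutation test was run exactly (252 assignments of the labels, smallest p 0.00794). Each library is 1 mouse per the study's methods, but p-values measure the spread between libraries, 4 of which lie within another. A pair counted as nested where the smaller exceeded the larger in less than 1% of the genes that had 5 or more counts.

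The 10 genes, the 6 lists around them and the marker lists were chosen with earlier results of these data known. All 10 genes are described, and from each list every gene past the threshold, or, where none passed, the most abundant by TPM. Intervals of fold changes are 95%, and limits at a count of 0 are the level of 3 counts and cover counting error only. Figures were drawn with matplotlib 3.10.9.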

Additional observations from a re-analysis of the deposited data

Results flagged for a closer look

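Among 22 groups of 5 values examined for a single library far from the rest, 2 had one, and chance gives about 1 in 20. Il10 stood at 6.79 CPM in MIT-Empty replicate 4, against 0.778 to 2.13 CPM in the other MIT-Empty libraries, and that library also had the highest summed level of melanoma and of macrophage markers. Fasl stood at 15.9 CPM in MIT-BATF replicate 5, while the rest of its group lay between 31.1 and 34.9 CPM. Both libraries have counts that lie within those of another library of their group.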

How the results depend on the processing

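Csf2 stayed lower and past the threshold in 22 of 23 alternatives and Il10 in 12 of the 20 that tested it, and no gene of the 10 was called higher in any. In the rest of the 23 the filter dropped Il10: with a mean count of at least 50, with shared reads counted once, and without the containing libraries. Of the 10 genes 1 was called lower with a mean count of at least 50, with shared reads counted once (also by DESeq2 or without the filter), without the contained libraries and without MIT-Empty replicates 2 and 4, and 0 without the containing libraries. With the replicate block 1 was called, since Il10 had -3.05 on the log2 scale (adjusted p = 0.0586 from edgeR), and Lta had -0.14. Same-numbered libraries of the groups did not pair throughout (correlations of deviations from -0.06 to 0.25). Numbers 1 (0.14) and 3 (0.25) correlated best with each other, and numbers 2, 4 and 5 did not. The block called 235 genes higher and 239 lower of 11781, against 254 and 286 without it. Leaving out single libraries gave 1 to 3 genes called lower, and 0 to 1 with shared reads counted once.

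Log2 fold changes that changed sign belonged to genes that passed no test. Without MIT-Empty replicates 2 and 4 Ifng had 0.41. By limma voom Tnf had 0.13 and Tnfsf10 0.030. Tnfsf10 had 0.028 once shared reads were counted once (0.038 by DESeq2, and 0.084 without the filter, where Tnf had 0.047). Without the contained libraries Lta had -0.12 and Tnfsf10 0.11, and without the containing ones Lta had -0.24 and Fasl -0.032. With single libraries left out, Ifng ran from -0.50 to 0.23 (shared reads counted once: -0.53 to 0.25), Tnf from -0.35 to 0.093 (-0.40 to 0.20), Lta from -0.31 to 0.35 (-0.41 to 0.31) and Tnfsf10 from -0.23 to 0.020 (-0.14 to 0.20). The Lif difference ran from 0.357 to 0.621 CPM, and in ranks it was 3.80 (p = 0.0556, exact permutation test). The difference in the Ifng share ran from -2.52 to 3.35 percentage points. The cause was not tested for any of these.

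Counts of calls over all genes depended on the fit: DESeq2 called 470 higher and 703 lower, limma voom 637 and 699, edgeR without the filter 357 and 546, with shared reads counted once 64 and 76, without the contained libraries 37 and 59, without the containing ones 7 and 8, and without MIT-Empty replicates 2 and 4 127 and 132. Counting shared reads once gave 169 and 219 by DESeq2 and 167 and 299 without the filter. Leaving out single libraries gave 140 to 352 higher and 147 to 420 lower. Il10, Il21 and Lif had at most 97 counts in a library, which limits their precision.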

Other observations

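Reads of Csf2, Fasl, Il10, Il2, Lta and Tnf fell on 1 transcript each. Ifng-202, a transcript with a retained intron, held 0.171% to 1.01% of the Ifng counts of a library. Tnfsf10-202 held 0% to 15.5% of the Tnfsf10 counts. Of the few Il21 counts, Il21-203, with a retained intron, held 15.3% over all libraries.

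The remaining marker lists are set against all 11781 genes tested, of which edgeR called 2.16% higher and 2.43% lower. Of 4 tested dendritic cell markers 2 were higher in MIT-BATF (Itgax and Xcr1). With shared reads counted once Xcr1 passed and Itgax did not (adjusted p = 0.00911 and 0.192 from edgeR). The other 2 had negative log2 fold changes, Ccr7 -0.45 (adjusted p = 0.197) and H2-Ab1 -0.91 (adjusted p = 0.124), and both were under an unadjusted p of 0.05. The list had a summed level of 618 to 685 CPM for MIT-BATF and 531 to 1078 CPM for MIT-Empty. The 1 tested B cell marker, Cd79b, was higher, but its call was lost (edgeR adjusted p = 0.128) when shared reads were counted once, and the list summed to 2.55 to 4.74 CPM for MIT-BATF and 0.659 to 2.08 CPM for MIT-Empty. Dcn, 1 of 2 tested fibroblast and endothelial markers, was lower, also when shared reads were counted once (edgeR adjusted p = 0.0195; 6.95 to 14.1 CPM for MIT-BATF and 16.3 to 107 CPM for MIT-Empty over the list). By edgeR none of 4 NK cell, 2 CD4 T cell or 4 erythroid markers passed (2 NK cell and 1 erythroid marker were higher at an unadjusted p under 0.05, and 0 by DESeq2 or limma voom), and no neutrophil marker was tested by edgeR, while DESeq2 called 1 higher.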
